A study of Mus musculus with 4 samples.

Results

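The G1 cyclins and the inhibitors of cyclin-dependent kinases (CDKs) were examined in the left ventricle of KDM5B-knockout (KDM5B-KO, here KO) and wild-type (WT) mice at day 7 after myocardial infarction (MI). The 10 genes were chosen by symbol: the D-type cyclins Ccnd1, Ccnd2 and Ccnd3, the E-type cyclins Ccne1 and Ccne2, and the inhibitors Cdkn1a, Cdkn1b, Cdkn2a, Cdkn2b and Cdkn2c. They were read by 17 of the 41174 probes on the Agilent Whole Mouse Genome array, each probe a 60-base oligonucleotide. All probes together matched 20049 gene symbols. Each group had 2 arrays, numbered 2 and 3 in the sample titles and called WT 2, WT 3, KO 2 and KO 3. The KO mice carried a CRISPR/Cas9 deletion in Kdm5b that removes part of the gene with its JmjC domain and shifts the reading frame, on a C57BL/6 background, and the WT mice were their littermates. According to the methods the mice were males of 8 to 10 weeks, and in both groups the left anterior descending coronary artery was tied off permanently, so no uninjured heart is part of the comparison. Nothing states that the 2 samples of a group came from separate animals, and the p-values measure only the spread between these samples.

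Cells enter the cell cycle from G1 when cyclins of the D type activate CDK4 and CDK6 and cyclins of the E type activate CDK2. These kinases phosphorylate the retinoblastoma protein RB, which releases E2F transcription factors, and E2F in turn drives the genes of DNA replication. The CIP/KIP inhibitors (Cdkn1a, encoding p21, and Cdkn1b, encoding p27) bind cyclin-CDK complexes, whereas the INK4 inhibitors (Cdkn2a, Cdkn2b and Cdkn2c) bind CDK4 and CDK6 and keep cyclin D away. Adult cardiomyocytes have largely left the cell cycle, while fibroblasts, endothelial cells and immune cells divide in the healing infarct. KDM5B is a histone demethylase that removes methyl groups from a lysine of histone H3 at promoters. The question put to the data was which of these genes differ in mRNA level between KO and WT hearts after MI.

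Levels are log2 processed signals from which the array's own 75th percentile was subtracted, so a level of 0 equals that percentile, and a difference is KO minus WT on the log2 scale, ± its standard error (SE) from limma with 2 arrays per group. Where a pair of levels is given for a genotype, number 2 comes before number 3. Between 68.15% and 72.04% of probes per array were well above background, the scanner software's test that a spot outshines its surroundings. The targeted gene gave lower levels on both KO arrays than on both WT arrays: the brighter Kdm5b probe read -0.87 and -1.81 in WT and -2.40 and -2.26 in KO, still well above background. All 4 samples are labelled male, but Xist, which is transcribed from the inactive X chromosome of females, was bright on WT 2 and KO 2 and at background on WT 3 and KO 3, and the Y-linked Ddx3y gave the opposite picture. The difference is therefore also given within each number, and the one at number 3 is free of the arrays that go against their label. All 4 arrays lay on 1 slide, WT at positions 1 and 2 and KO at positions 3 and 4, so that position and genotype cannot be told apart. Cardiomyocyte markers were well above background on all arrays for 8 of 8 genes. Their summed level, in multiples of the 75th percentile, ran from 609 to 1102 in WT and from 432 to 2074 in KO, and KO 2 was the highest and KO 3 the lowest of the 4 arrays. The labelled tissue is left ventricle, but KO 2 stood apart by atrial markers, all 4 of which were highest there. Myl7, an atrial myosin light chain, read -0.70 and -0.35 in WT, 6.39 on KO 2 and 0.23 on KO 3, Myl4 read 5.46 on KO 2 and at most -0.55 elsewhere, and Sln 5.95 on KO 2 and at most -2.46 elsewhere, while Nppa ranged from 8.54 to 9.24. The difference of the members is therefore also given without KO 2, and the part of atrial tissue in their values was not tested. Without KO 2, Ccne2 differed by 1.03, Ccne1 by 0.95, Cdkn2c by 0.53, Ccnd3 by 0.07 and Cdkn1b by -0.18, each in the direction of all 4 arrays, while Ccnd1, Ccnd2, Cdkn1a and Cdkn2b turned sign. In whole tissue, fewer cells of a type and less RNA per cell cannot be told apart.

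The largest difference among the G1 genes was in Ccne2, whose mean signal was 2.30-fold higher in KO hearts by its brighter probe, and both of its probes lay above WT on each KO array. Ccne1 and Cdkn2c were also higher on both KO arrays than on both WT arrays, and Cdkn1b was lower on both. In unscaled signal, however, Ccne1 and Cdkn2c overlapped between the groups. Ccnd1, Ccnd2, Ccnd3, Cdkn1a and Cdkn2b overlapped between the groups, and Cdkn2a was too dim to test. No difference passed the test. Of the 17 probes, 16 were tested, all well above background on all 4 arrays, and 0 reached a limma adjusted p under 0.05 with a fold change over 2. The background was the same, with 0% of 28304 tested probes called. At an unadjusted p under 0.05, 2 member probes remained, both of Ccne2 and higher in KO, beside 1.45% of all tested probes (0.685% in this direction). The methods ask for a corrected p. A t-test on the log2 values with the p left unadjusted and a fold change over 2 called 1 member probe, also of Ccne2, beside 0.311% of all tested probes. The KO pair lay wholly above the WT pair for 6 of the 16 probes, against 13.1% of all tested probes, and below for 3, against 10.9%. Since probes of one gene share their transcript, the same was counted once per gene, with the brightest probe. By gene, 3 of 9 lay above (13.3% of all 15062 tested genes) and 1 of 9 below (8.9%).

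**Figure D1:**
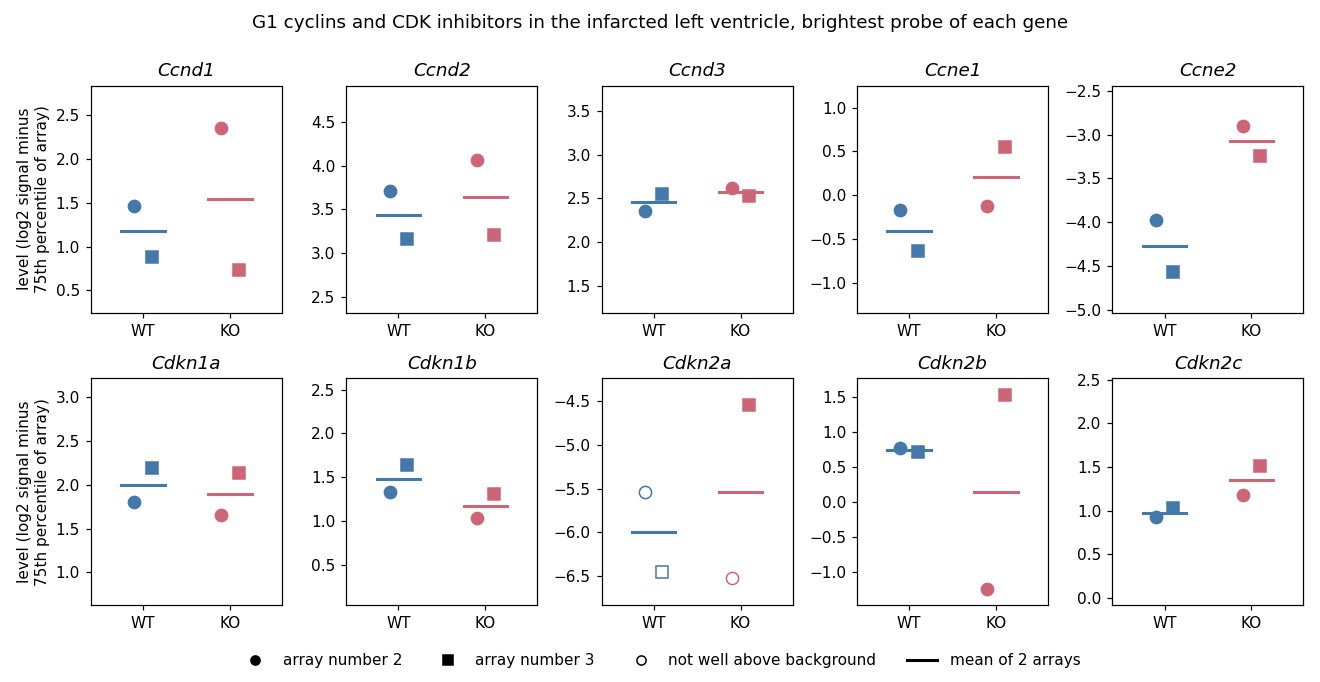
Level of each gene (log2 signal minus the 75th percentile of the array) on the 2 WT and 2 KO arrays, by its brightest probe. Circles are number 2, squares number 3, bars the mean of 2 arrays, and open symbols are not well above background. The KO points lie clear of the WT points for Ccne2, by a narrow margin for Ccne1, Cdkn1b and Cdkn2c, and Cdkn2b spreads widely only within KO.

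All 5 cyclins had a higher mean level in KO, with a median difference of 0.37, although Ccnd2 and Ccnd3 turned lower (-0.14 and -0.21) when no scaling was applied. Of the 4 tested inhibitors Cdkn1a, Cdkn1b and Cdkn2b had a lower mean and Cdkn2c a higher one, with a median of -0.21. The median over the 9 tested genes was 0.20, beside 0.04 over all tested genes. These directions are averages over arrays that did not always move together. For 3 of the 9 genes, Ccnd1, Ccnd3 and Cdkn2b, the difference had opposite signs at number 2 and number 3, as it did for 55.8% of all tested genes. The spread between the 2 arrays of a group ran from an SD of 0.04 (Cdkn2b in WT) to 1.97 (Cdkn2b in KO).

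Ccnd1 encodes cyclin D1, the D-type cyclin best known for its induction by growth factors. It was read by 1 probe at chr7:152116173-152116232 (mm9, minus strand), printed in 10 spots per array. The level was 1.47 and 0.89 in WT and 2.35 and 0.73 in KO. KO 2 held the highest and KO 3 the lowest value, so the WT arrays lay between them. The difference of 0.37 ± 0.66 (SE) had a 95% confidence interval from -1.52 to 2.25 (limma), and it was 0.89 at number 2 and -0.16 at number 3. Without KO 2 it was -0.45. The spots of one array differed by an SD of only 0.041 to 0.050, far less than the arrays of one genotype. Number 2 exceeded number 3 by 0.58 in WT and by 1.63 in KO. The order of the 4 arrays, KO 2, WT 2, WT 3 and KO 3 from high to low, was also that of the summed cardiomyocyte markers (2074, 1102, 609 and 432), and the part of these cells in the Ccnd1 values was not tested.

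Ccnd2, which encodes cyclin D2, was read by 3 probes. The brightest gave 3.71 and 3.16 in WT and 4.07 and 3.20 in KO. As for Ccnd1, both number 2 arrays lay above both number 3 arrays. The difference was 0.20 ± 0.43 (SE), with 0.36 at number 2 and 0.04 at number 3, and it turned to -0.23 without KO 2 and to -0.08 without WT 3. The other probes lie 9433 and then another 9449 bases away on chromosome 6 (mm9) and gave differences of 0.28 and 0.17, so the probes placed the arrays in the same way, with the third differing in the order of WT 3 and KO 3 only. The third probe, at chr6:127098696-127098755 (mm9, minus strand), is printed here because its 0.17 comes from the far end of the stretch read, and shows what the array measured.

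Ccnd2 probe: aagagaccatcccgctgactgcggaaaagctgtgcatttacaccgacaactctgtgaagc

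Ccnd3, encoding cyclin D3, had the smallest difference of the cyclins. Its level was 2.36 and 2.55 in WT and 2.62 and 2.52 in KO. The groups overlapped, and the difference of 0.12 ± 0.22 (SE) had a 95% confidence interval from -0.50 to 0.74. It was 0.27 at number 2 and -0.03 at number 3.

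The E-type cyclins act after the D type, at the passage into S phase. Ccne1, encoding cyclin E1, was read by 2 probes that the files place on the same 24 bases, chr7:38882937-38882960 (mm9), although their sequences overlap by no more than 3 bases end to end. The brighter probe read -0.17 and -0.64 in WT and -0.12 and 0.55 in KO. Only KO 3 stood clearly apart, since KO 2 exceeded WT 2 by 0.05. The difference was 0.62 ± 0.36 (SE) with a limma unadjusted p of 0.167, and it was 0.05 at number 2 and 1.19 at number 3. The dimmer probe read -4.01 and -4.95 in WT and -3.67 and -3.99 in KO, a difference of 0.65 ± 0.41 (SE). Here too the KO arrays lay above the WT arrays, by a margin of 0.02.

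Ccne2 encodes cyclin E2, the second activator of CDK2 in this family. Its brighter probe, at chr4:11130171-11130230 (mm9, plus strand), is shown because it carried the largest difference of the 9 tested genes.

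Ccne2 probe: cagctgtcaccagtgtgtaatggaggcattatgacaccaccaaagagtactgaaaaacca

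This probe read -3.97 and -4.57 in WT and -2.90 and -3.24 in KO. The lower KO array exceeded the higher WT array by 0.73, more than the distance between the arrays of either group. The difference was 1.20 ± 0.32 (SE), with a 95% confidence interval from 0.28 to 2.12 and a limma unadjusted p of 0.0229, and after adjustment over all tested probes the p was 0.9999. The second probe, at chr4:11130287-11130346 with 56 bases between them, read -4.95 and -4.78 in WT and -3.57 and -3.82 in KO. Its groups were 0.97 apart. The difference was 1.17 ± 0.23 (SE), or 2.26-fold, at a limma unadjusted p of 0.00818, which also adjusted to 0.9999. Ccne2 was higher in KO at number 2 (1.07 and 1.38 for the 2 probes) and again at number 3 (1.33 and 0.97). Ccne2 was the 1 gene of the 9 with a fold change over 2, which 1.14% of all tested genes showed in this direction. Both probes were dim, with an unscaled log2 signal of 4.83 to 6.55 against a mean of 1.94 to 2.31 for the negative control spots. The lowest signal of any probe well above background was nearer, at 4.31 on WT 2 and 4.03 on WT 3. The second Ccne2 probe read 4.83 and 5.15 there. With another background correction (normexp) the Ccne2 difference was 0.86, which is under a fold change of 2.

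**Figure D2:**
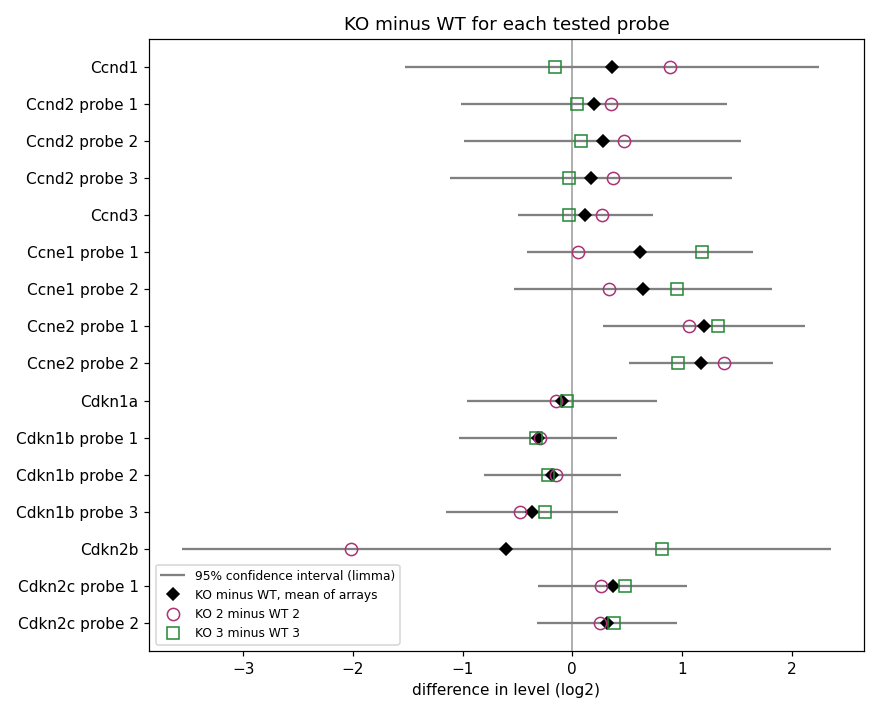
KO minus WT difference (log2) of the 16 tested probes. Diamonds are the difference of the group means, lines its 95% confidence interval from limma, circles the difference at number 2 and squares at number 3. The intervals of the 2 Ccne2 probes lie above 0 and those of the other probes cross it, and Cdkn2b has its 2 numbers on opposite sides, at -2.02 and 0.82.

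Among the CIP/KIP inhibitors, Cdkn1a is the classic target of the tumour suppressor p53. The probe at chr17:29237377-29237436 (mm9, plus strand) was printed in 10 spots. Cdkn1a read 1.80 and 2.19 in WT and 1.66 and 2.14 in KO. The groups overlapped, and both number 3 arrays lay above both number 2 arrays. The difference was -0.10 ± 0.30 (SE) with a 95% confidence interval from -0.96 to 0.77. It was -0.14 at number 2 and -0.05 at number 3, and turned to 0.15 without KO 2 and to 0.10 without WT 3. Spots of one array had an SD of 0.025 to 0.058, against a distance of 0.39 between the WT arrays and 0.49 between the KO arrays. The stretch before the Cdkn1a start site, from RefSeq (GRCm38.p6, chr17:29090892-29090978, plus strand), is shown because it holds the 7 letters of a p53-type motif on both strands, in capitals.

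Cdkn1a promoter: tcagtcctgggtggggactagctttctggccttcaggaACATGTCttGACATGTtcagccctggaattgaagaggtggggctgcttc

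The motif was searched as ACATGTC and its reverse complement GACATGT, the same letters on either strand. The promoter windows searched were all of the same length, longer than the stretch printed here, and 1.62% of the 32851 windows held the motif. The 7 genes among the 10 with a window in the RefSeq table had 11 windows, and 1 of these, of Cdkn1a, held it. The E2F motif TTTCCCGC was found in 1 of the 11 windows, of Cdkn2a, and in 0.89% of all windows. TTTGGCGC was found in 0 of 11 and in 0.42%, and both were searched on both strands. These counts describe letters in the windows and not binding.

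Cdkn1b, which holds cells in quiescence, was lower in KO by all 3 of its probes. The brightest read 1.33 and 1.64 in WT and 1.03 and 1.31 in KO. The KO pair lay below the WT pair, but KO 3 and WT 2 were only 0.02 apart. The difference was -0.31 ± 0.25 (SE) with a limma unadjusted p of 0.285, and it was of like size at number 2 (-0.30) and number 3 (-0.33). The second probe was printed in 10 spots at chr6:134871103-134871161 (mm9, plus strand), a stretch of 59 bases in the files, and is shown as the probe of this gene with the most spots behind each value.

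Cdkn1b probe: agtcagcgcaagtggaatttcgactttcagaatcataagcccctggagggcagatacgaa

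It read -0.95 and -0.75 in WT and -1.09 and -0.96 in KO, a difference of -0.18 ± 0.22 (SE). The third probe read -2.58 and -2.35 in WT and -3.06 and -2.60 in KO, a difference of -0.36 ± 0.27 (SE). For each of the 3 probes the KO arrays lay below the WT arrays by a margin of 0.02, and none of the intervals excluded 0. For the probe with 10 spots this margin was smaller than the SD of the spots of any array (0.036 to 0.064).

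**Figure D3:**
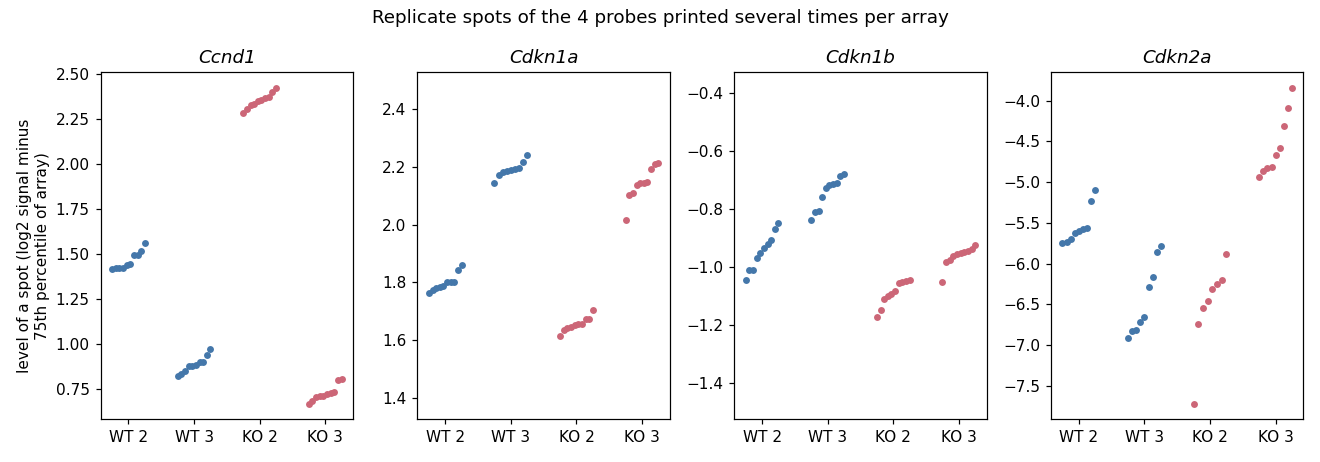
Level of every replicate spot (log2 signal minus the 75th percentile of the array) for the 4 member probes that were printed several times per array, sorted within each array from low to high. The spots of an array keep close together for Ccnd1, Cdkn1a and Cdkn1b, and the arrays themselves stand apart for Ccnd1. For Cdkn1a the spots of WT 3 and KO 3 overlap, and for Cdkn1b those of KO 3 overlap with WT 2 and KO 2. The spots scatter for the dim Cdkn2a probe, which is raised on KO 3.

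The INK4 inhibitors gave 3 different pictures. Cdkn2c, encoding p18, read 0.92 and 1.03 in WT and 1.18 and 1.51 in KO. The KO arrays lay above the WT arrays by 0.15. The difference was 0.37 ± 0.24 (SE) with a limma unadjusted p of 0.201, and it was 0.26 at number 2 and 0.48 at number 3. A second probe gave 0.32 ± 0.22 (SE), but it shares 40 bases with the first and is not a separate reading.

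Cdkn2b encodes p15, known for its induction by TGF-beta. By the probe at chr4:88952437-88952496 (mm9, minus strand) it read 0.77 and 0.72 in WT and -1.25 and 1.54 in KO. The WT arrays were nearly equal, while one KO array lay below them and the other above. The mean difference of -0.60 ± 1.04 (SE), 95% confidence interval from -3.56 to 2.36, lay between opposite differences, with -2.02 at number 2 and 0.82 at number 3, and it was 0.79 without KO 2 and -1.99 without KO 3. Some marker lists had a sum that was lowest on KO 2 and highest on KO 3 in the same way. The summed macrophage markers (6 of 6 genes well above background on all arrays) were 44.5 and 64.3 in WT and 18.2 on KO 2 and 78.7 on KO 3, with 6 of 6 lowest on KO 2 and 4 of 6 highest on KO 3. Mesothelial markers (4 of 4) ranged from 9.02 to 16.0 in WT and from 2.67 on KO 2 to 24.2 on KO 3, with 3 of 4 lowest on KO 2 (the exception was Wt1) and 4 of 4 highest on KO 3. Smooth muscle and pericyte markers (5 of 5) ranged from 54.7 to 91.9 in WT and from 42.8 to 167 in KO, but only 2 of 5, Acta2 and Cnn1, were lowest on KO 2 and highest on KO 3, and Rgs5 ran the other way. B cell markers (4 of 4) were 1.42 and 1.96 in WT, 0.65 on KO 2 and 6.55 on KO 3. All 4 of these genes were lowest on KO 2 and highest on KO 3. Neutrophil markers (3 of 4) were 25.8 and 32.6 in WT, 4.79 on KO 2 and 33.2 on KO 3. Of the neutrophil genes, 3 of 4 followed this order. The part of these cell types in the Cdkn2b values was not tested.

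Cdkn2a encodes p16 and, from another reading frame, the p53 activator ARF, and its probe is annotated to both transcripts, so the products cannot be told apart. It read -5.54 and -6.45 in WT and -6.52 and -4.55 in KO, and was well above background on KO 3 only. On that array 9 of 9 spots passed, beside 2 of 9 on WT 2, 1 of 9 on WT 3 and 0 of 8 on KO 2. The gene was not tested, and no fold change is given, since 1 of the 4 arrays measured it.

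The partners and targets of these genes were then counted, from lists that, like the members, were chosen with earlier results of these data known. Of 13 CDKs and partners, 12 were tested (Cdk2 was too dim), and 10 had a higher and 2 a lower mean in KO, with a median difference of 0.23. The KO pair lay wholly above the WT pair for 5 of the 12 and below for 0, against 13.3% and 8.9% of all tested genes. Ccna2, the cyclin of S phase and a textbook E2F target, read 0.82 and 0.43 in WT and 1.34 and 1.92 in KO, a difference of 1.01 ± 0.32 (SE). Ccnb1, a mitotic cyclin, differed by 0.92 ± 0.52 (SE), with 0.08 at number 2 and 1.77 at number 3. The median of this list was 0.10 at number 2 and 0.35 at number 3.

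Of the 13 RB and E2F family genes, 12 had a higher mean, with a median of 0.15, and 4 lay above WT on both KO arrays (13.3% of all tested genes) and 1, Rbl2, below (8.9%). The highest were the repressive members E2f7 (0.90 ± 0.22 SE) and E2f8 (0.88 ± 0.33 SE), themselves induced as cells enter S phase. E2f7 was higher by 0.78 at number 2 and 1.02 at number 3, E2f8 by 0.39 and 1.37. Rbl2, the RB-like protein of resting cells, differed by -0.17 ± 0.22 (SE). Among 25 other inhibitors and regulators of G1, 14 were higher and 11 lower, with a median of 0.04. Cdkn3, a phosphatase of CDKs that is expressed in dividing cells, differed by 1.06 ± 0.44 (SE), with 0.41 at number 2 and 1.72 at number 3. Cdkn2d, the remaining INK4 inhibitor, differed by 0.40 ± 0.26 (SE), and Smad3, a TGF-beta signal transducer, by -0.36 ± 0.24 (SE). The 23 genes of the p53 pathway had a median of 0.08, with 14 higher and 9 lower. The KO pair lay above the WT pair for 5 of the 23 and below for 0, against 13.3% and 8.9% of all tested genes. The largest rises among these 5 were Gadd45a (0.42 ± 0.22 SE) and Plk2 (0.35 ± 0.27 SE). Larger differences in either direction, such as Gdf15 at -0.95 and Btg2 at 0.92, came with overlapping groups. Without scaling, the medians of the lists turned to -0.10 for the CDKs, -0.19 for the RB and E2F genes, -0.30 for the other regulators and -0.25 for the p53 pathway, where the median of all tested probes was -0.32, and the other regulators also had -0.05 after quantile normalization and in the authors' table.

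All 20 proliferation markers, genes transcribed in dividing cells, had a higher mean in KO, 14 with the KO pair above the WT pair (13.3% of all tested genes), and the median difference was 0.76. At number 2, 15 of 20 were higher with a median of 0.35, and at number 3, 20 of 20 with a median of 1.20. All of these genes were read on the same arrays, so the counts are not independent readings of a difference. Ccnb2, a mitotic cyclin, read 1.33 and 1.09 in WT and 1.90 and 2.68 in KO, a difference of 1.08 ± 0.36 (SE). Tk1, the thymidine kinase of S phase, differed by 1.06 ± 0.34 (SE), with 0.52 at number 2 and 1.59 at number 3. The median of the markers stayed positive without scaling, at 0.43. No gene of the 5 lists passed the limma threshold (0 of 93 tested, lowest adjusted p 0.9999), and at an unadjusted p under 0.05 the lists held 8 genes, 6 of them proliferation markers, against 1.43% of all tested genes.

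**Figure D4:**
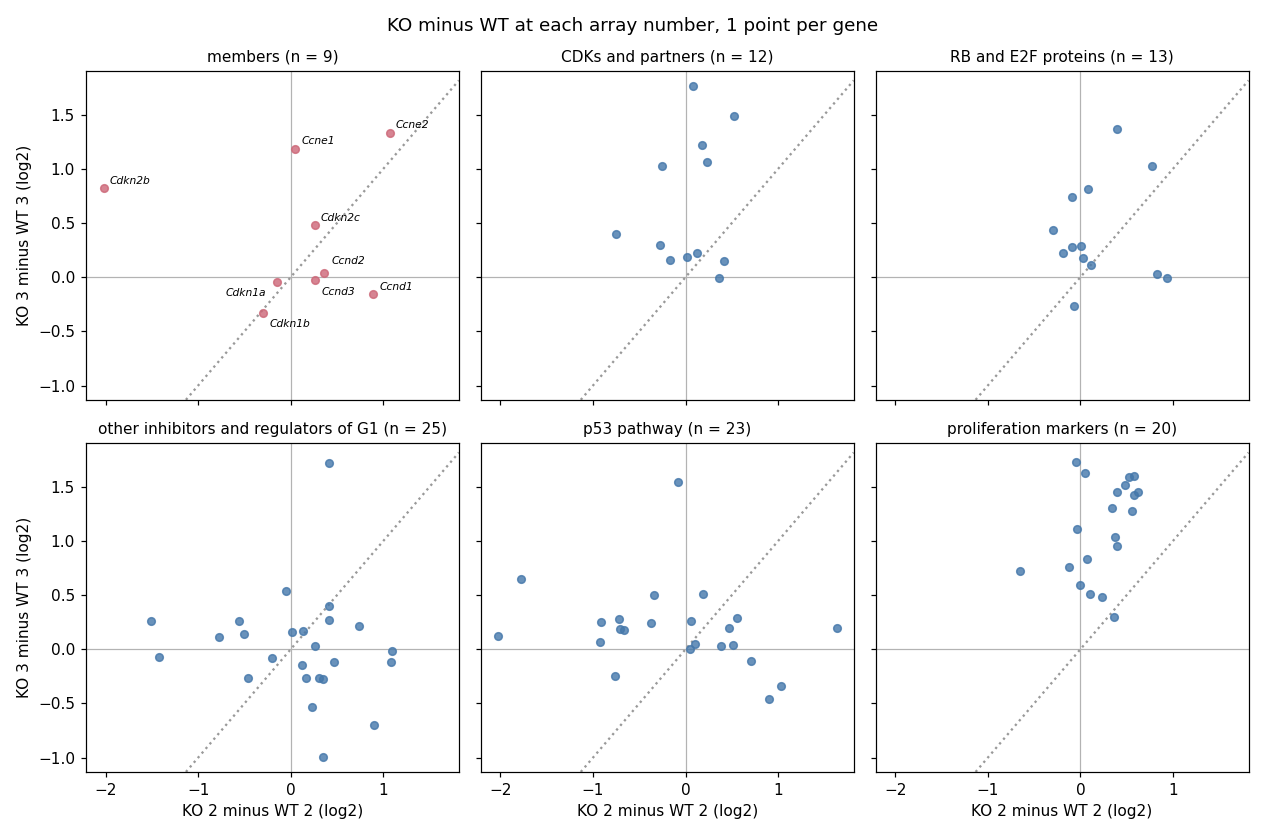
KO minus WT difference at number 2 (x axis, log2) and at number 3 (y axis, log2), 1 point per tested gene, for the G1 cyclins and CDK inhibitors and for the 5 lists, with the dotted line marking equal differences. Ccne2 sits far up on both axes and Cdkn2b far to the left, and the proliferation markers lie above 0 on the y axis without exception.

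For the cyclin and the inhibitor with the largest mean difference, the tested genes with the nearest pattern over the 4 arrays were listed, by the Euclidean distance between levels centred on each gene's mean. Nearest to Ccne2 were Myh2, Scgb1b27 and Ube2s, a ubiquitin-conjugating enzyme of mitosis, at a distance of 0.22. Myh2 and Scgb1b27 were not well above background on either WT array, so their place rests on unmeasured WT levels and no distance is given. Nearest to Cdkn2b were 8430419K02Rik, Ddah1 (0.14) and Rhoh (0.15), and 8430419K02Rik was not well above background on KO 2, the array that sets the pattern. Over 4 arrays and 15062 genes such distances describe likeness only.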

How the data were processed

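RNA of the left ventricle was hybridised to 1-colour Agilent arrays, 2 per genotype. The authors read the scans with Agilent Feature Extraction 10.7 and deposited the processed intensity of each spot, corrected for background and spatial trend. They also deposited a table of log2 values from GeneSpring, whose normalization is not stated. Set against quantile-normalized log2 signals, 99.90% to 99.96% of the 41168 shared probes differed by less than 0.01. Column medians were 6.78, so genes were not centred, and the direction was that of the scanner signal. Groups and numbers came from the sample titles.

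Control spots and the 92 to 116 spots per array flagged as outliers were left out, and no remaining spot was saturated. The log2 intensity was averaged over the spots of a probe and shifted by the 75th percentile of its array, which in linear signal was 876.3 (number 2) and 976.1 (number 3) in WT and 607.6 and 885.2 in KO. Testing required a signal well above background in all arrays of WT, of KO or of both, a condition met by 28304 probes. The comparison of KO and WT used limma (version 3.58.1, functions lmFit and eBayes, R 4.3.3), and p-values were adjusted over all tested probes by the Benjamini-Hochberg method. Calls needed an adjusted p below 0.05 together with a fold change above 2. An exact permutation test of 2 against 2 arrays cannot give a two-sided p under 0.333, and precision is limited by the small number of arrays. The fit was run on simulated data with independent errors between arrays, which checks the code but not its behaviour where arrays of one number vary together.

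Probes were named by the files, and the files' names for the 17 member probes all matched RefSeq symbols (GRCm38.p6). Coordinates of probes are those of the files on mm9, and their place within exons was not determined. A gene took the value of its brightest tested probe. Members, Kdm5b, the largest rises and falls of each list where the KO pair lay beyond the WT pair (up to 2 each way) and the nearest patterns were named. The members and lists were chosen with earlier results of these data known. The alternatives were normexp background correction (offset 50), no shift or a shift by the median, quantile normalization, 2 other filters, the authors' table, the block for array number, leaving out each array, array weights, eBayes with its trend and robust options, the t-test of the methods, averages over a gene's probes and, added after seeing the data, each other probe of a member.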

Additional observations from a re-analysis of the deposited data

Results flagged for a closer look

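Cdkn2b differed between KO and WT by -2.02 at number 2 and by 0.82 at number 3. The effect had opposite signs in the 2 pairs of arrays, with 1 array per genotype at each number, and the difference between the pairs was not tested.

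Cdkn2a, which entered no test, gave an unscaled log2 signal of 5.24 on KO 3, above the mean of 2.02 of the negative control spots of that array. The control mean was also exceeded on WT 2 (4.23 against 2.31), WT 3 (3.48 against 2.04) and KO 2 (2.73 against 1.94). Cdkn2a was not well above background on these other 3 arrays.

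In unscaled log2 signal, the brightest Xist probe reached 14.13 in the WT and 13.24 in the KO array of number 2. At number 3 it read 1.92 (WT) and 2.01 (KO), where negative control spots averaged 2.04 and 2.02. The labels call all 4 samples male.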

How the results depend on the processing

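No member probe and no list gene was called under limma in any alternative, and the array number as a replicate block also gave 0 calls (the labels give the samples no link beyond the number, although Xist and Ddx3y divide the arrays by it, and with 2 pairs the deviations of WT 2 and KO 2 from their group means correlated at 0.57 over tested probes). The block changed no call. The SEs, intervals and p-values printed for single genes come from the fit without the block, so their spread includes the difference between the numbers. The t-test with the p unadjusted, where the methods ask for a corrected p, called 88 probes (0.311% of those tested), 1 of them a member, the dimmer Ccne2 probe (0 after Benjamini-Hochberg). Of 124 member differences recomputed on all 4 arrays, 122 kept their direction. The exceptions came without scaling, where Ccnd2 was -0.14 and Ccnd3 -0.21. The median of all tested probes was then -0.32, below both. With normexp it was 0.13, and Ccnd3, at 0.13, did not exceed it. Ccne2 ranged from 0.86 to 1.25 over these settings. Without scaling, Ccnd1 and Cdkn2c kept their direction at only 0.03 each, and the groups overlapped for Ccne1 and Cdkn2c.

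Leaving out 1 array reversed 6 of 36 member differences: without KO 2 Ccnd1 (-0.45), Ccnd2 (-0.23), Cdkn1a (0.15) and Cdkn2b (0.79), and without WT 3 Ccnd2 (-0.08) and Cdkn1a (0.10). The ranges were -0.45 to 1.18 for Ccnd1, -0.23 to 0.63 for Ccnd2, 0.02 to 0.22 for Ccnd3, 0.28 to 0.95 for Ccne1, 0.90 to 1.50 for Ccne2, -0.34 to 0.15 for Cdkn1a, -0.47 to -0.16 for Cdkn1b, -1.99 to 0.79 for Cdkn2b and 0.20 to 0.53 for Cdkn2c. The median of the proliferation markers ran from 0.49 without KO 3 to 1.05 without KO 2, and that of the RB and E2F genes from 0.004 to 0.33. Where 1 array was left in a genotype, its spread was taken from the other genotype. The causes were not tested. A block for slide or scan was not run, since there was 1 slide and 1 scan day. Signal over background limited what could be measured for Cdkn2a.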
